A study of Mus musculus with 5 samples.

Results

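A set of 37 mouse genes of the germ line and of meiosis was followed through 5 RNA-seq libraries of pluripotent cells. The genes were taken by name, from a list drawn up with earlier results of these data known. All 37 were found among the 23951 genes of the deposited table. They carry the working name of germline genes silenced by methylation. No DNA methylation was measured in these libraries, so that name was not tested and only RNA is described here. All 37 members are accounted for, with no filter on low values.

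The study compared the action of bone morphogenetic protein 4 (BMP-4), a signalling ligand, in ESC-derived epiblast stem cells (ESD-EpiSCs, here EpiSCs) and in mouse embryonic stem cells (ESCs). The EpiSCs grew on plates coated with serum, in N2B27 medium with FGF2 at 12 ng/ml and Activin A at 20 ng/ml, and were left untreated or exposed to 10 ng/ml BMP-4 during 1.5 h or 24 h. The ESCs were of the E14 line, grown on gelatin, in a basal medium that held LIF and 10 ng/ml BMP-4 or in a medium that held LIF and 15% serum. No genotype other than the cell line is given. The 2 ESC libraries therefore differ in BMP-4, serum and medium together, whose parts cannot be told apart. LIF was at 1000 U/ml in the serum medium, and no LIF dose was found for the other, so it may differ too. The labels name more than 1 basal medium without saying which this library came from. Each of the 5 conditions was 1 library, so replicate error is unknown, no difference was tested and p-values are not given.

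Germ cells run a set of genes that most other cells keep off. The PIWI-interacting RNA (piRNA) pathway, housed in germ granules called nuage, holds transposons in check, while cohesins, the synaptonemal complex and recombinases pair and exchange chromosomes in meiosis. In the mouse embryo many of these genes have promoters rich in CpG that are methylated by the de novo DNA methyltransferases around implantation, and a Polycomb complex with E2F6, MGA, MAX and PCGF6 is known to hold some of them off in ESCs. ESCs stand for the naive state before implantation and EpiSCs for the primed state after it.

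The start regions of some chosen members are shown first, because the letters that this complex is known to read can be seen in part of them. Each stretch is from the GRCm38.p6 promoters of RefSeq and runs 5′ to 3′ on the gene's strand from 150 bases before to 30 bases after the start site. Capitals mark the letters CACGTG (an E-box) and TCCCGC or its reverse complement GCGGGA (letters of the E2F family). The genes shown are chosen examples and do not stand for the whole set. CACGTG was present in the promoters of 13 of 32 matched members. Syce1 and Tdrd12, which were also lower in every EpiSC library, held none of these letters. The first group are genes that were lower in every EpiSC library than in every ESC library: Ddx4, the Vasa helicase of germ granules (chr13:112652281-112652460, minus strand), Hormad1, an axis protein of meiotic chromosomes (chr3:95559527-95559706, plus strand), Stk31, a Tudor-domain kinase of germ cells (chr6:49395389-49395568, plus strand) and Sycp3, a lateral element of the synaptonemal complex (chr10:88459437-88459616, plus strand).
Ddx4: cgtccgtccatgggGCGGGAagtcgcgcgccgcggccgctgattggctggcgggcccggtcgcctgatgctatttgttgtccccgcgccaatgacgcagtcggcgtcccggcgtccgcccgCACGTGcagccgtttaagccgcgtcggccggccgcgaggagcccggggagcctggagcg
Hormad1: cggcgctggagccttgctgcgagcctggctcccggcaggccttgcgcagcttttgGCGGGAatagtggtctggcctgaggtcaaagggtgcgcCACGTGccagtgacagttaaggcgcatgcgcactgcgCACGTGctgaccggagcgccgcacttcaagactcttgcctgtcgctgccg
Stk31: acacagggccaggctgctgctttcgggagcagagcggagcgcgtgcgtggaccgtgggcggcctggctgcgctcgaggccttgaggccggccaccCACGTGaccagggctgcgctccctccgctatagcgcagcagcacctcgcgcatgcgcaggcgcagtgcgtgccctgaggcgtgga
Sycp3: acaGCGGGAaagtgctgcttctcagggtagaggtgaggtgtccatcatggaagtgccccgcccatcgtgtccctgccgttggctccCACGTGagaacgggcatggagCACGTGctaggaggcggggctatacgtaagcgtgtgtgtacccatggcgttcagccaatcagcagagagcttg

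The other pair are the only members that were at least 2-fold higher in every EpiSC library than in every ESC library, and none of these letters stands in the stretch shown: Tdrkh, a Tudor-domain partner of PIWI proteins (chr3:94413094-94413273, plus strand), and Tdrd5, a Tudor-domain protein of nuage (chr1:156303319-156303498, minus strand). In the longer promoter entry of Tdrd5, read on both strands, GCGGGAA is present outside this stretch. That run contains the reverse complement of TCCCGC, so a match to each can come from the same site. The longer entry of Tdrkh holds none of the letters.
Tdrkh: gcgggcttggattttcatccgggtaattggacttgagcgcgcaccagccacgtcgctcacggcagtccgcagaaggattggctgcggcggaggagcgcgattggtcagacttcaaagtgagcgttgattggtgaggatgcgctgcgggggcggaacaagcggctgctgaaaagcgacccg
Tdrd5: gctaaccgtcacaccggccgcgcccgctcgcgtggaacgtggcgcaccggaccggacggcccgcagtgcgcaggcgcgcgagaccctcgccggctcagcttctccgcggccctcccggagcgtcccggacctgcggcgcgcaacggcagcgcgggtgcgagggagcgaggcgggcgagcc

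In Ddx4 the E-box letters began 29 bases before the start site and GCGGGA 136 bases before it. Hormad1 held the E-box letters at 57 and at 20 bases before the start, with GCGGGA at 95, and Sycp3 held them at 64 and at 43 bases before it, with GCGGGA at 147. Stk31 held them once, 55 bases before the start. Hormad1 and Stk31 each had 2 start sites among the promoter entries, and distances are to the first one listed. For Stk31 and Tdrkh the 30 bases shown after the start matched no GENCODE transcript of the gene.

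Over the full promoter entries, 250 bases before to 50 after each start, 32 of the 37 members were matched by symbol, and Tex11, Tex15, Morc1, Piwil2 and Spo11 had no entry. CACGTG, read on both strands, was present for 13 of the 32 members (40.6%), beside 9.2% of the 16745 genes of the same table found among the RNA values. TCCCGC, on both strands, was present for 14 members (43.8%), beside 28.7% of all genes. The longer run GCGGGAA, which contains the reverse complement of TCCCGC and so overlaps it, was present for 10 members (31.2%), beside 6.95% of all genes. The members' promoters had a median CpG observed-over-expected ratio of 0.693, beside 0.619 for all genes, and 22 of them (68.8%) reached 0.6, beside 51.6% of all genes. Among promoters at 0.6 or more, the E-box letters were present for 12 of 22 members (54.5%), beside 13% of all genes, GCGGGAA for 9 (40.9%), beside 11.4%, and TCCCGC for 11 (50%), beside 46.4%, so at that CpG content the shares with TCCCGC lay close together.

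In this paragraph lower and higher mean at least 2-fold in FPKM + 1, a scale explained below, in every EpiSC and ESC pair. Of the 14 matched members that were lower, 7 (50%) held the E-box letters and 10 (71.4%) held TCCCGC. Of the other 18 matched members 6 and 4 did. Some of these 18 also lay below both ESC libraries in every EpiSC library, without reaching 2-fold in every pair. Among all genes, the E-box letters were present for 12.9% of 566 genes lower in every EpiSC library and for 7.07% of 580 genes higher in every one, while TCCCGC was present for 36.6% of those lower and 42.9% of those higher, the opposite order. A match is a description of letters, not a site shown to be bound, and none of these shares was tested.

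**Figure D1:**
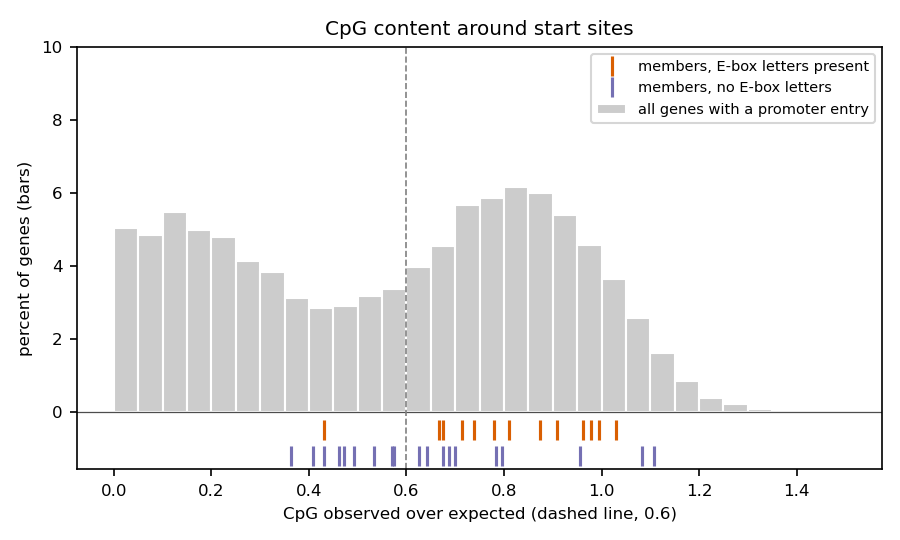
CpG content of promoters, as the observed-over-expected ratio on the horizontal axis. Grey bars give the percent of all 16745 genes with a promoter entry, ticks below the axis are the 32 matched members (orange with the letters CACGTG, purple without), and the dashed line marks 0.6, which 12 of the 13 members with the letters reached.

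Levels are FPKM, fragments per length of transcript scaled to the size of the library, and so can be set side by side between genes. In ESCs most of the set reached 1 FPKM, and in EpiSCs most of it did not, although the share of members listed at 0 in EpiSCs (37.8%, 40.5% and 32.4%) was near that of all genes (36.9%, 36.3% and 35.4%). In ESCs 5.41% of members were listed at 0 in LIF and BMP-4 and 2.7% in LIF and serum, where 35.5% and 37.1% of all genes were. At 1 FPKM or more stood 6, 5 and 5 of the 37 members in EpiSCs untreated and after 1.5 h and 24 h of BMP-4, against 24 in ESCs in LIF and BMP-4 and 21 in ESCs in LIF and serum. Over all genes that share hardly differed, at 44.5%, 44.5% and 44.5% in the EpiSC libraries, against 45% and 43.7% in the ESC libraries in the same order. The members' median level was 0.0722, 0.0368 and 0.0400 FPKM in the EpiSC libraries, against 4.33 FPKM in LIF and BMP-4 and 1.56 FPKM in LIF and serum, while the median of all genes stood between 0.358 and 0.457 FPKM in all 5 libraries.

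The gap ran through most of the set. All 3 EpiSC values lay below both ESC values for 29 members, beside 23% of all genes, and above both for 4 members (Tdrkh, Tdrd5, Brdt and Spo11), beside 21.9% of all genes. Tex15, Asz1, Tdrd9 and Dpep3 overlapped or tied. In the ESCs 20 members reached 1 FPKM in both libraries, and 15 of these were under 0.4 FPKM in every EpiSC library. Picking members by high ESC values favours that direction, and the same count was not taken over all genes, so it only describes levels. In these bulk libraries fewer expressing cells and less RNA per cell cannot be told apart.

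**Figure D2:**
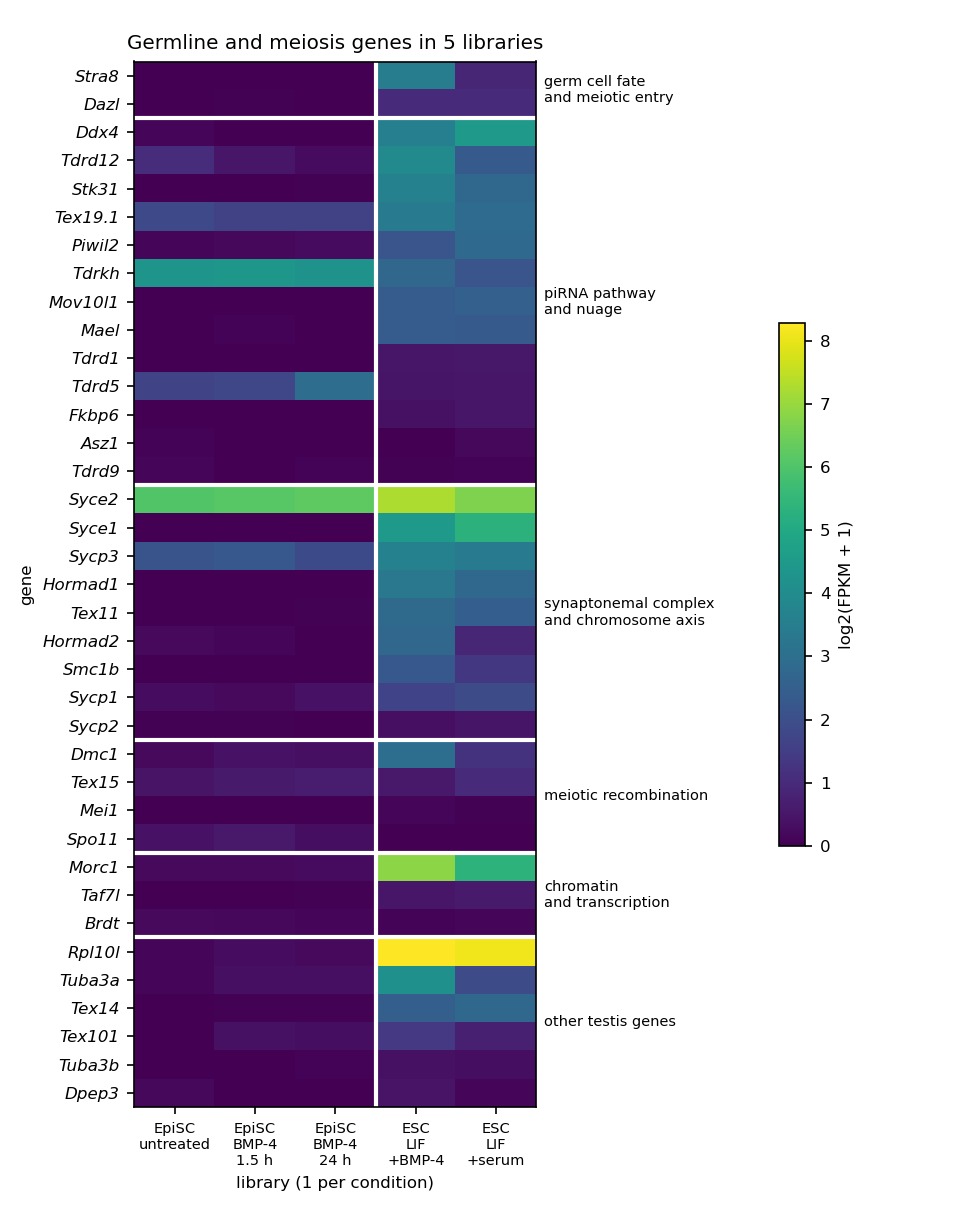
Level of each of the 37 genes as log2(FPKM + 1), in 5 libraries, 1 per condition, with genes grouped by role and ordered within a role by their mean in the ESC libraries. Most rows are dark in the 3 EpiSC columns, Syce2 and Tdrkh are the lightest rows there, and Rpl10l, Syce2 and Morc1 are the lightest in the ESC columns.

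The cultures matched their names. The summed level of 5 naive genes (Zfp42, Esrrb, Klf4, Tfcp2l1, Nr0b1) was 1.84 to 2.02 FPKM in EpiSCs, against 1425 and 1634 FPKM in ESCs in LIF and BMP-4 and in LIF and serum. The sum of 4 primed genes (Fgf5, Otx2, Pou3f1, Dnmt3b) was 372 to 591 FPKM in EpiSCs, against 61.4 and 60.9 FPKM in the same ESCs. Of the 5 fibroblast markers only Thy1 reached 1 FPKM, and of 6 markers of Sertoli and Leydig cells only Star did. The sum of 6 primitive endoderm markers was 7.67 to 9.49 FPKM in EpiSCs, against 1.46 and 1.66 FPKM in the ESCs, and that of 7 primordial germ cell markers was 10.5 to 22.8 FPKM in EpiSCs, against 50.9 and 33.8 FPKM in the ESCs. Their part in the members' levels was not tested. Depth, estimated from the steps of low values, was about 9.69, 10.8 and 13.2 M reads (M, mega) in the EpiSC libraries, against 8.80 and 8.38 M reads in the ESC libraries in the same order, so the EpiSC libraries were the deeper ones.

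Untreated EpiSCs, in the primed state, were compared with each ESC library. EpiSCs and ESCs also differed in medium, added factors and plate coating, which cannot be told apart from cell state here. Here and below, higher and lower mean a difference of at least 2-fold in FPKM + 1, a scale that understates the change of low genes. Against ESCs in LIF and serum, untreated EpiSCs were lower for 18 of 37 members and higher for 2, where 5.05% of all genes were lower and 5.75% higher. The median log2 difference was -0.97 over the members and 0.00 over all genes. Against ESCs in LIF and BMP-4, untreated EpiSCs were lower for 23 members and higher for 2, where 5.7% of all genes were lower and 5.42% higher, with a median of -1.47 over the members and 0.00 over all genes. Both comparisons share the untreated EpiSC library. In all 6 pairs of an EpiSC with an ESC library, 17 members were lower and 2 higher, where 3.31% of all genes were lower and 3.4% higher.

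The deposited 95% intervals were wide, and they did not overlap for 10 of the 18 members lower than in LIF and serum and for 15 of the 23 against LIF and BMP-4. Of these, 5 and 7 were listed at 0 in untreated EpiSCs, where the deposited interval is also 0. The share of all genes with intervals apart was not taken, so these counts describe the members only.

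**Figure D3:**
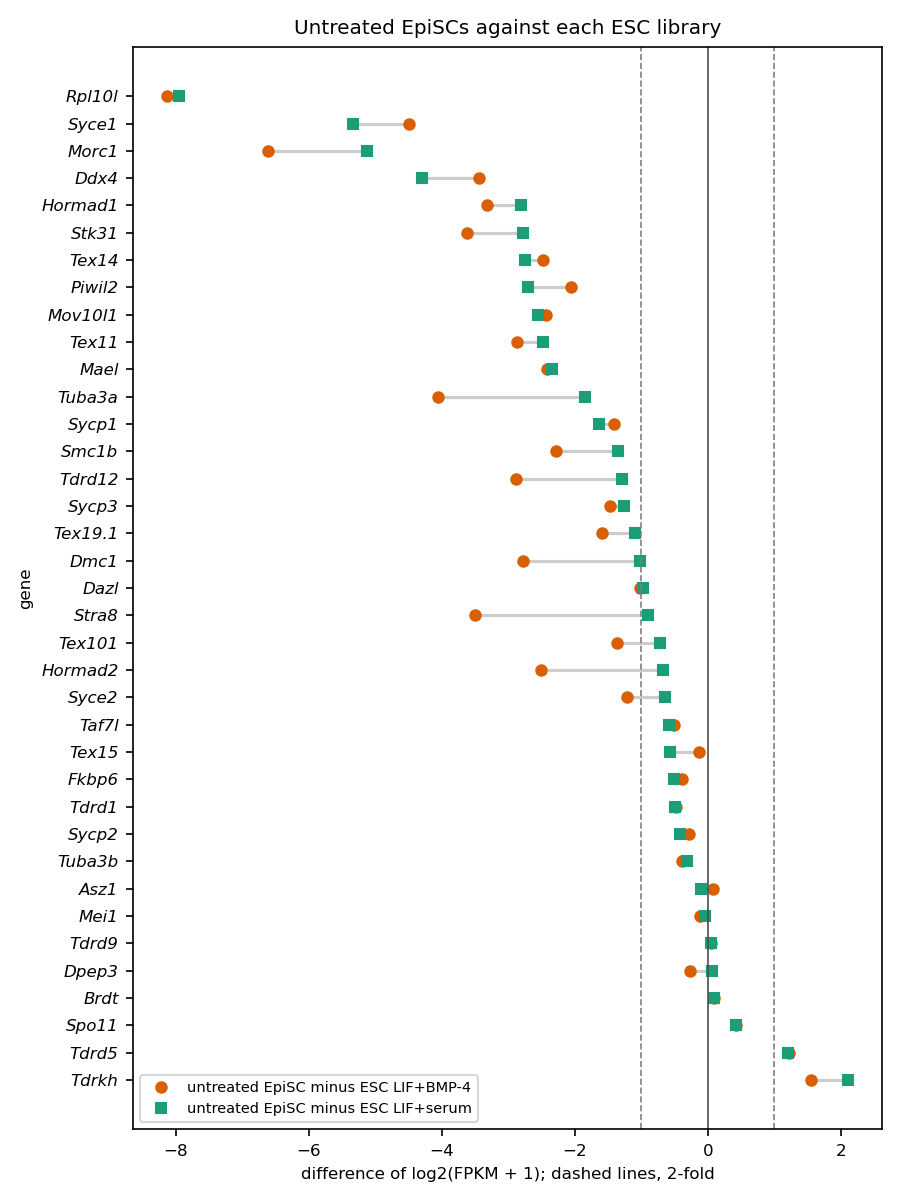
Difference of log2(FPKM + 1) for each member, untreated EpiSCs minus ESCs in LIF and BMP-4 (circles) and minus ESCs in LIF and serum (squares), with 1 library per condition and dashed lines at 2-fold. Points lie left of 0 for 31 members in each comparison, Rpl10l is farthest left, and Tdrd5 and Tdrkh alone lie right of the 2-fold line.

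The genes that open germ cell fate and meiosis were low or absent in EpiSCs. Stra8, the gene that retinoic acid switches on at meiotic entry, was listed at 0 in the 3 EpiSC libraries, against 10.4 FPKM in ESCs in LIF and BMP-4 and 0.871 FPKM in LIF and serum. Dazl, an RNA-binding protein that licenses germ cells, stood at 0, 0.0311 and 0 FPKM in the EpiSC libraries untreated, at 1.5 h and at 24 h, against 1.03 and 0.963 FPKM in ESCs in LIF and BMP-4 and in LIF and serum. In reads that is 0, 1 and 0 for Dazl in EpiSCs, against 27 and 24 in the ESC libraries, which puts untreated EpiSCs at least 9.24-fold lower than LIF and serum at a floor of 3 reads. Such read counts could be recovered for 24 of the 37 members, and limits on them cover counting error only.

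Of the 13 members of the piRNA pathway and nuage, 7 were lower in every EpiSC library, 2 were higher and 4 were called in neither direction. Ddx4 stood at 0.110, 0 and 0 FPKM in EpiSCs untreated, at 1.5 h and at 24 h, against 11.0 FPKM in ESCs in LIF and BMP-4 and 20.8 FPKM in LIF and serum, with deposited intervals of 0 to 0.359 in untreated EpiSCs and 7.40 to 34.2 in LIF and serum. Piwil2 (Mili), a PIWI protein active in fetal germ cells, stood at 0.0998, 0.143 and 0.176 FPKM in the same EpiSCs, against 3.58 and 6.14 FPKM in the ESCs in LIF and BMP-4 and in LIF and serum. Mov10l1, the helicase that feeds precursors into the pathway, was listed at 0 in all EpiSC libraries, against 4.38 and 4.88 FPKM in the same ESCs. For all of these the 2 states did not overlap.

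Stk31 stood at 0, 0 and 0.0228 FPKM in EpiSCs untreated, at 1.5 h and at 24 h, against 11.4 FPKM in ESCs in LIF and BMP-4 and 5.87 FPKM in LIF and serum. That is 0, 0 and 1 reads against 333 and 164, so untreated EpiSCs were at least 63.2-fold lower than LIF and serum. Mael, the nuage protein Maelstrom, had 0, 1 and 0 reads in EpiSCs, against 56 and 50 reads in the same ESCs (4.33 and 4.06 FPKM). In these genes the few EpiSC reads are at the limit of what the depth can show.

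Tdrd12, a helicase of secondary piRNA production, and Tex19.1, a repressor of retrotransposons in germ cells, kept some RNA in EpiSCs. Tdrd12 stood at 1.06, 0.417 and 0.196 FPKM in EpiSCs untreated, at 1.5 h and at 24 h, against 14.2 FPKM in ESCs in LIF and BMP-4 and 4.07 FPKM in LIF and serum. Tex19.1 stood at 2.52, 2.09 and 2.08 FPKM in EpiSCs, against 9.59 and 6.52 FPKM in the same ESCs, or 41, 38 and 46 reads against 142 and 92. Both were lower in all 6 pairs, and Tex19.1 was even across the EpiSC libraries.

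Tdrkh and Tdrd5 went the other way. Tdrkh (mm9 chromosome 3, 94217240 to 94235421) stood at 18.7, 19.9 and 18.3 FPKM in EpiSCs untreated, at 1.5 h and at 24 h, against 5.71 FPKM in ESCs in LIF and BMP-4 and 3.56 FPKM in LIF and serum. It was 2.93-fold and 4.31-fold higher in untreated EpiSCs than in those ESC libraries on the FPKM + 1 scale. Its deposited intervals overlapped in both comparisons, and 39.2% of the 36-base runs of its longest transcript also occur in other genes, chiefly in Oaz3, which overlaps it on the other strand. Tdrd5 (mm9 chromosome 1, 158185426 to 158233737) stood at 2.24, 2.42 and 6.86 FPKM in EpiSCs, against 0.383 and 0.406 FPKM in the same ESCs, and was 2.34-fold and 2.30-fold higher in untreated EpiSCs. Only 3.81% of its runs are shared.

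The 4 other piRNA members were low in every library. Tdrd1, a scaffold of the Mili pathway, had 1, 0 and 0 reads in EpiSCs untreated, at 1.5 h and at 24 h, against 19 and 19 in ESCs in LIF and BMP-4 and in LIF and serum, where 19 reads were 0.441 FPKM in LIF and serum. Fkbp6, a co-chaperone of piRNA loading, Asz1, a protein of mitochondrial nuage, and Tdrd9, a helicase of the pathway, did not pass 0.423 FPKM in any library. Fkbp6 was listed at 0 in all EpiSC libraries.

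Of the 9 members of the synaptonemal complex and chromosome axis, 6 were lower in every EpiSC library and 3 were not called in all pairs. Syce1 and Syce2 both encode proteins of the central element, yet they differed. Syce1 was listed at 0 in all EpiSC libraries, against 21.6 FPKM in ESCs in LIF and BMP-4 and 39.6 FPKM in LIF and serum. Syce2 stood at 65.5, 69.2 and 74.7 FPKM in EpiSCs untreated, at 1.5 h and at 24 h, against 153 and 103 FPKM in the same ESCs. It was the highest member in every EpiSC library, was 2.32-fold lower in untreated EpiSCs than in LIF and BMP-4 and 1.57-fold lower than in LIF and serum, and its intervals overlapped throughout.

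Hormad1 was listed at 0 in all EpiSC libraries, against 8.99 FPKM in ESCs in LIF and BMP-4 and 5.98 FPKM in LIF and serum, and 38.6% of its runs are shared with the predicted genes Gm15529 and Gm7167. Its relative Hormad2 stood at 0.166, 0.0741 and 0 FPKM in EpiSCs untreated, at 1.5 h and at 24 h, against 5.65 and 0.861 FPKM in the same ESCs. Tex11, an X-linked crossover factor, stood at 0, 0 and 0.0227 FPKM in EpiSCs, against 6.33 and 4.55 FPKM in those ESCs. These axis and crossover genes were all near 0 in EpiSCs, while the ESC libraries lay within 2-fold of each other for Hormad1 and Tex11 and further apart for Hormad2.

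Sycp3 remained measurable in EpiSCs, at 3.50, 3.87 and 2.65 FPKM untreated, at 1.5 h and at 24 h, against 11.4 FPKM in ESCs in LIF and BMP-4 and 9.75 FPKM in LIF and serum. It shares 52.2% of its runs with Chpt1, which overlaps it on the other strand, and the sources used here do not say whether reads were counted by strand. Smc1b, the meiotic cohesin subunit, had 0, 0 and 1 reads in EpiSCs, against 144 and 55 in the same ESCs (3.88 and 1.56 FPKM), and was at least 21.2-fold lower in untreated EpiSCs than in LIF and serum. Sycp1, the transverse filament, had 7, 6 and 15 reads in EpiSCs, against 69 and 82 in those ESCs (2.21 and 2.76 FPKM). Sycp2, a lateral element, did not pass 0.376 FPKM in any library, with 2, 2 and 1 reads in EpiSCs, against 14 and 19 in the ESCs.

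Of the 4 members of meiotic recombination, Dmc1 and Tex15 reached 1 FPKM in an ESC library, and 0 were called in all 6 pairs. Dmc1, the meiotic recombinase, stood at 0.153, 0.335 and 0.253 FPKM in EpiSCs untreated, at 1.5 h and at 24 h, against 6.89 FPKM in ESCs in LIF and BMP-4 and 1.33 FPKM in LIF and serum. Spo11, which cuts DNA to start recombination, was listed at 0 in both ESC libraries and stood at 0.337, 0.483 and 0.248 FPKM in EpiSCs, the only member listed at 0 in both ESC libraries. Mei1, needed for those cuts in the mouse, had at most 3 reads in any library. Tex15, needed for recombinase loading in the mouse, stood at 0.355, 0.523 and 0.598 FPKM in EpiSCs, against 0.491 and 1.01 FPKM in the same ESCs, with no gap between the states.

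Among chromatin and transcription genes Morc1 stood apart. Morc1 (mm9 chromosome 16, 48431350 to 48631018), which is needed to silence transposons in male germ cells, stood at 0.165, 0.148 and 0.170 FPKM in EpiSCs untreated, at 1.5 h and at 24 h, against 114 FPKM in ESCs in LIF and BMP-4 and 39.9 FPKM in LIF and serum. In reads that is 5, 5 and 7 against 3127 and 1044, a ratio of LIF and serum over untreated EpiSCs of 241 (95% limits 103 to 745). Taf7l, a germ cell form of a TFIID subunit, had 0, 0 and 1 reads in EpiSCs, against 7 and 8 in the same ESCs. Brdt, a bromodomain protein of male germ cells, had 7, 7 and 6 reads in EpiSCs, against 3 and 3 in the ESCs. Neither passed 0.503 FPKM in any library.

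The highest member in ESCs was Rpl10l (mm9 chromosome 12, 67384366 to 67385388), an autosomal retrocopy of Rpl10 that takes over from it in male meiosis. It stood at 0.115, 0.207 and 0.170 FPKM in EpiSCs untreated, at 1.5 h and at 24 h, against 312 FPKM in ESCs in LIF and BMP-4 and 276 FPKM in LIF and serum. In reads that is 1, 2 and 2 against 2458 and 2068, and 18.1% of its runs also occur in the predicted gene Gm14460. Its ESC and EpiSC intervals were far apart, at 146 to 406 FPKM in LIF and serum beside 0 to 0.448 FPKM in untreated EpiSCs.

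The remaining testis genes were uneven. Tex14, a protein of the bridges between germ cells, stood at 0.0206, 0.0368 and 0.0303 FPKM in EpiSCs untreated, at 1.5 h and at 24 h, against 4.70 FPKM in ESCs in LIF and BMP-4 and 5.88 FPKM in LIF and serum. Tuba3a, a testis alpha-tubulin, stood at 0.0722, 0.259 and 0.266 FPKM in EpiSCs, against 16.9 and 2.84 FPKM in the same ESCs. Tuba3a shares 46.7% of its runs with other genes, among them Tuba3b, so reads of the pair may be split between them. Tuba3b and Dpep3, a membrane dipeptidase of the testis, did not pass 0.351 FPKM in any library. Tex101, a surface glycoprotein of germ cells, had 0, 3 and 3 reads in EpiSCs, against 13 and 5 reads in the ESCs.

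In all, 11 members were under 1 FPKM in each of the 5 libraries, with 0.503 FPKM as the highest value: Sycp2, Asz1, Taf7l, Tuba3b, Brdt, Fkbp6, Tdrd1, Tdrd9, Dpep3, Spo11 and Mei1. The members lie on 17 chromosomes, with at most 5 on 1 of them, chromosome 6.

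The ESC libraries were compared next, for ESCs in LIF and BMP-4 against LIF and serum. Of the 37 members 6 were higher with BMP-4 and 0 lower, where 1.46% of all genes were higher and 0.685% lower. The 6 were Hormad2, Stra8, Tuba3a, Morc1, Tdrd12 and Dmc1, at 2.81-fold (Morc1) to 6.08-fold (Stra8) on the FPKM + 1 scale. The median log2 difference was 0.07 over the members and 0.00 over all genes, on a scale that understates low members. At any size 21 members were higher and 15 lower. The members' median level was 4.33 FPKM in LIF and BMP-4 and 1.56 FPKM in LIF and serum. At 5 FPKM or more stood 16 and 11 members in the same order. Neither these counts nor those at any size were taken over all genes, so they only describe the members.

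Deposited intervals were apart for Morc1 alone, at 62.9 to 165 FPKM in LIF and BMP-4 and 18.1 to 61.6 FPKM in LIF and serum. Counted in reads, Morc1 was 2.85 times as high in LIF and BMP-4 (95% limits 2.66 to 3.06, counting error only). Tuba3a was 5.94 times as high (limits 4.12 to 8.80) from 212 and 34 reads, and Hormad2 6.56 times (limits 3.24 to 15.0) from 62 and 9 reads. Stra8 stood at 10.4 FPKM (interval 1.35 to 19.4) in LIF and BMP-4 and 0.871 FPKM (0 to 2.18) in LIF and serum, intervals that overlap.

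Some members lay the other way without reaching 2-fold in FPKM + 1. Tex15 was 0.489 times as high in LIF and BMP-4 as in LIF and serum by reads (limits 0.323 to 0.728, from 39 and 76 reads), or 1.34-fold lower on the FPKM + 1 scale. Piwil2 was 0.584 times as high in LIF and BMP-4 as in LIF and serum by reads (limits 0.477 to 0.712, from 163 and 266 reads). Ddx4 was 1.81-fold and Syce1 1.79-fold lower on the FPKM + 1 scale in LIF and BMP-4, with overlapping intervals. Rpl10l was 1.13-fold higher and Mov10l1 1.09-fold lower there. Of 7 markers of 2-cell-like cells, a rare state within ESC cultures, 3 reached 1 FPKM in LIF and BMP-4 and 0 in LIF and serum, their sum was 12.6 FPKM in LIF and BMP-4 and 0.885 FPKM in LIF and serum, and Tcstv1 and Tcstv3 were listed at 0 in both. Their part in these differences was not tested.

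**Figure D4:**
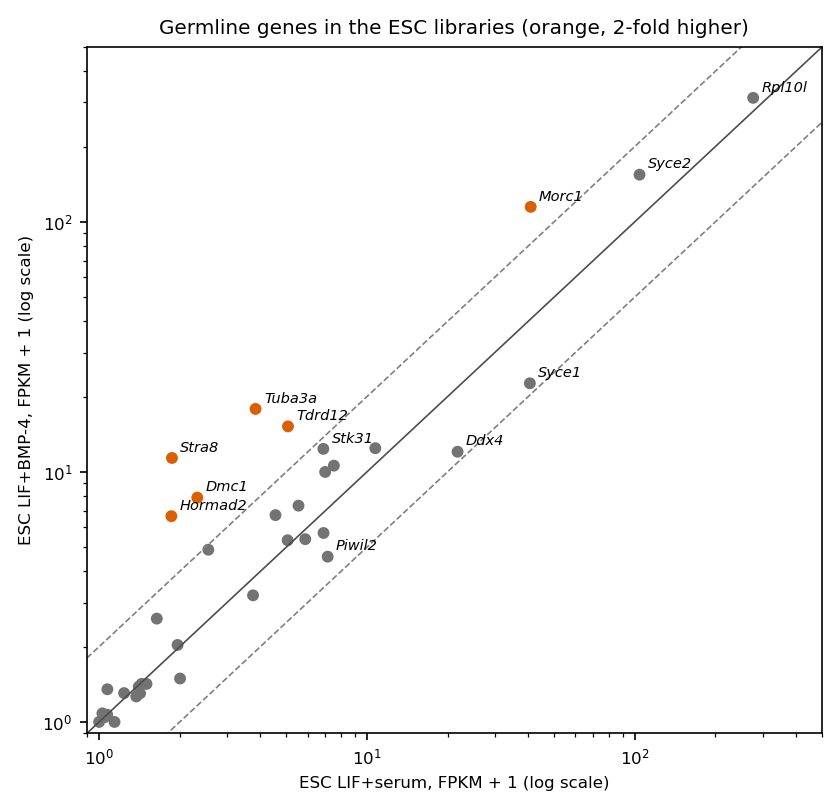
Level of each member in ESCs in LIF and BMP-4 (vertical axis) and in ESCs in LIF and serum (horizontal axis), as FPKM + 1 on log scales, 1 library each. The solid line is equality, the dashed lines are 2-fold, and the 6 orange genes (Stra8, Hormad2, Dmc1, Tuba3a, Tdrd12 and Morc1) lie above the upper dashed line.

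In EpiSCs, calls after BMP-4 were few, both in the set and over all genes. Members near 0 can hardly reach 2-fold on the FPKM + 1 scale, so these counts say little about most of the set. After 1.5 h, 0 members differed by 2-fold in either direction, where 0.138% of all genes were higher and 0.109% lower. After 24 h, Tdrd5 alone was higher than in untreated EpiSCs (2.43-fold on the FPKM + 1 scale) and 0 members were lower, where 0.347% of all genes were higher and 0.276% lower. Against 1.5 h, Tdrd5 was also the only member called at 24 h (2.30-fold higher), where 0.313% of all genes were higher and 0.217% lower. These comparisons share libraries, and the Tdrd5 interval at 24 h, 1.60 to 12.1 FPKM, overlapped those untreated (0 to 4.51) and at 1.5 h (0.0115 to 4.82).

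None of the 31 members under 1 FPKM in untreated EpiSCs reached that level after BMP-4. How many of all genes did so was not counted, and 44.5% of all genes stood at 1 FPKM or more in each EpiSC library. The count is therefore not a trait shown to be particular to the members. Stra8, Hormad1, Mov10l1, Fkbp6 and Syce1 were listed at 0 in all 3 EpiSC libraries. Tex15 had 31, 51 and 71 reads untreated, at 1.5 h and at 24 h, 1.68 times as high per read of depth at 24 h as untreated (95% limits 1.09 to 2.66, counting error only), below 2-fold. In the same 24 h library the sum of 7 primordial germ cell markers was 22.8 FPKM, against 10.5 FPKM untreated, with Nanos3 at 5.70 and 0.721 FPKM and Tfap2c at 12.7 and 6.10 FPKM, while Kit stood at 0.906 and 2.12 FPKM and Prdm14 was listed at 0 in both. Tdrd12 lay the other way, at 1.06, 0.417 and 0.196 FPKM untreated, at 1.5 h and at 24 h, 1.73-fold lower at 24 h than untreated on the FPKM + 1 scale, with overlapping intervals (0 to 0.616 and 0 to 2.59 FPKM). The part of those markers in the Tdrd5 and Tdrd12 differences was not tested.

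**Figure D5:**
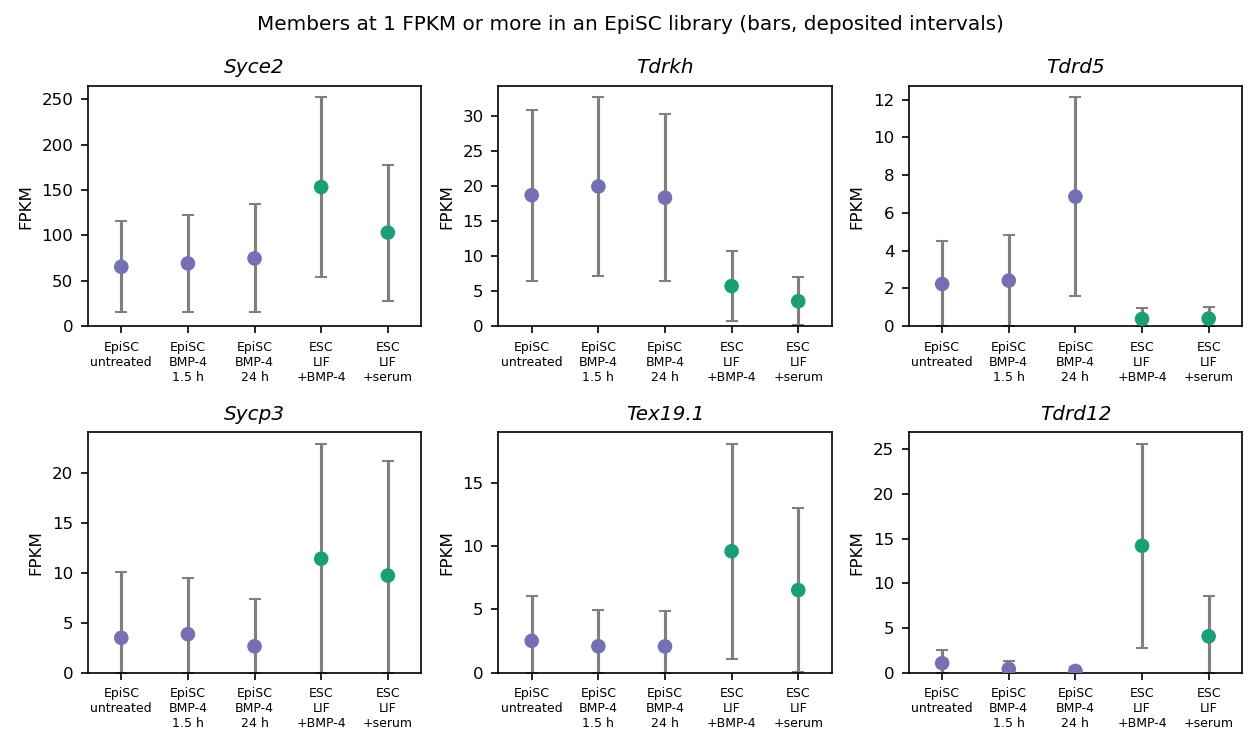
FPKM of the 6 members that reached 1 FPKM in an EpiSC library, for EpiSCs (purple) untreated and after 1.5 h and 24 h of BMP-4 and for ESCs (green) in LIF and BMP-4 and in LIF and serum, with bars for the deposited 95% intervals and 1 library per point. Tdrkh and Tdrd5 stand higher in EpiSCs, the other 4 lower, and Tdrd5 is highest at 24 h.

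Other germline genes of the same pathways were read from lists that, like the members, were drawn up with earlier results of these data known. Over all genes 3.31% were lower and 3.4% higher in all 6 pairs, which is the share to read the following counts against. Of 13 other piRNA genes, 3 were lower and 1 higher in every EpiSC library: Rnf17, a Tudor-domain protein, stood at 1.31, 1.31 and 1.22 FPKM in EpiSCs untreated, at 1.5 h and at 24 h, against 24.5 FPKM in ESCs in LIF and BMP-4 and 20.1 FPKM in LIF and serum, Gtsf1 and Pld6 were also lower, and Tdrd7 was higher (2.23 FPKM untreated, against 0.150 and 0.220 FPKM in the same ESCs). Of 21 other meiosis genes in the table, 3 were lower (Rec8, Stag3 and Mlh3) and 0 higher, while Mnd1 and Trip13, picked after their values were seen, stood at 54.1 and 47.4 FPKM in untreated EpiSCs, against 62.3 and 61.3 FPKM in LIF and serum. Of 15 other germline genes known for methylated promoters in somatic cells, 4 were lower and 0 higher. Hsf2bp, a partner of meiotic recombination proteins, stood at 0.141, 0.0949 and 0.104 FPKM in EpiSCs, against 63.4 and 39.2 FPKM in the ESCs, and D1Pas1, Sohlh2 and Cyct were listed at 0 in all EpiSC libraries. The other 11, 8 of them Mage genes, stayed under 1 FPKM in every library.

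The writers and repressors known for such genes were read in the same libraries. Dnmt3b, a de novo methyltransferase, stood at 403, 394 and 288 FPKM in EpiSCs untreated, at 1.5 h and at 24 h, against 53.7 FPKM in ESCs in LIF and BMP-4 and 56.0 FPKM in LIF and serum. Of 9 genes of DNA methylation it was the 1 higher in all 6 pairs. Dnmt3l, Tet1, Tet2 and Hells were lower in all 6 pairs, and the other 4 were called in neither direction. Among these, Dnmt3a stood at 16.1, 18.1 and 16.3 FPKM in EpiSCs, against 18.8 and 11.0 FPKM in the same ESCs. Of 17 repressor genes, E2f6 and Yaf2, both subunits found in the E2F6 Polycomb complex, were higher in every EpiSC library and 0 were lower in all pairs. E2f6 stood at 54.2, 52.9 and 51.0 FPKM in EpiSCs, against 17.2 and 16.7 FPKM in the same ESCs, and Mga, Max and Pcgf6 were within 2-fold. The part of these genes in the members' levels was not tested.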

How the data were processed

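Poly(A) RNA of 5 cultures was sequenced from directional libraries. The authors deposited FPKM per gene with lower and upper bounds, which Cufflinks defines as 95% limits, made with TopHat and Cufflinks (version 2.0.13 as listed) on mm9, with Picard and SAMtools also named, all per the submitters' processing notes. No source used here gives the annotation, filters, strand handling or scaling between libraries. Positions are the file's mm9 spans, written from 1. Genes with a status other than OK in a library (8 in all, no member) were left out of comparisons with that library.

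From these values differences of log2(FPKM + 1) were taken for 6 pairs of libraries, and a gene was called at 2-fold or more, with no filter. The call was set beside the share of all genes called. An FPKM of 0 can be a failed estimate and gets no fold unless reads were recovered. The relative worth of 1 read was taken from the most frequent ratio of values under 0.5 FPKM, and the scale from 464 of 1050 low genes with 1 annotated transcript, so depths are approximate. Reads were recovered for members whose 5 values were whole multiples of 1 read within 0.06, 24 of 37, with exact binomial 95% limits. Shared sequence counts 36-base runs of the longest GENCODE transcript found in other genes.

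Values are printed in every library for members that reached 5 FPKM in 1 library, and for others where libraries were 2-fold apart. Read counts of other low members, and the values of Mnd1, Trip13, Dnmt3a, Mga, Max and Pcgf6, were added after values were seen. Members and lists were chosen with earlier results of these data known. Of 25 other meiosis genes listed, 21 were found by symbol. Another pseudocount (0.1 FPKM), a 3-fold call, non-overlapping intervals and size factors were tried, and, after the data were seen, leaving out members with over 20% shared sequence. Calling was checked on simulated data. Python 3.11.15, numpy 2.4.6, pandas 2.3.3 and scipy 1.17.1 were used.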

Additional observations from a re-analysis of the deposited data

How the results depend on the processing

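No paired analysis was possible because there was a single library per condition, and for the same reason no library could be left out. Shares of all genes were not taken under the other settings, so the member counts that follow have no background beside them. With a pseudocount of 0.1 FPKM the members lower in untreated EpiSCs numbered 28 against LIF and serum, and 26 were lower in all 6 pairs. A larger count there is not a stronger result, because a smaller pseudocount enlarges the differences of low genes. At that pseudocount 1 member was lower in LIF and BMP-4 than in LIF and serum, 2 were higher and 3 lower after 1.5 h, and 3 higher and 4 lower after 24 h; the cause was not tested. At 3-fold, 1 member was higher in untreated EpiSCs than in LIF and serum and 0 than in LIF and BMP-4, 0 were higher in all pairs, and 0 after 24 h against untreated cells or against 1.5 h. Where intervals had to be apart, 10 were lower and 0 higher against LIF and serum, 15 lower and 0 higher against LIF and BMP-4, 1 higher between the ESC libraries, and 0 higher after 24 h in either comparison. Without the 5 members with much shared sequence, Tdrd5 was the 1 member higher against LIF and serum, against LIF and BMP-4 and in all pairs. No value changed sign. Size factors kept 53 of 53 gene differences within the range that the deposited intervals allow on the FPKM + 1 scale. With the smaller pseudocount 34 of 53 lay outside that range. Those values are on another scale than the range, so this count does not show that they leave the deposited intervals. Depth limits the members near 0, where 1 read is the smallest step, and the ESC comparison, where serum, medium and BMP-4 change together.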
